A study of Homo sapiens with 6 samples.

Results

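The genes described here encode ubiquitin-specific proteases (USP) and ubiquitin-conjugating enzymes (UBE2), and the question was where their ends were accessible in U937 cells that lack the neutrophil serine proteases. Protein-coding genes on chromosomes 1-22 and X were taken whose symbol is USP followed by a number or UBE2 followed by a letter, without the USP17L genes and USP18. This gave 86 of 19974 protein-coding genes, 50 USP and 36 UBE2 genes. USP6NL entered by its symbol, although it is known as a Rab GTPase-activating protein and not as a deubiquitinase, and so did UBE2V1P16, whose symbol has the form of a pseudogene. The members were chosen by name and not by a measured value, but with earlier results of these data known.

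Chromatin accessibility had been measured by ATAC-seq, whose transposase cuts open DNA and inserts sequencing adapters. The tested cells were 3 independent ΔNSPs clones of U937, an established human monocytic line, depleted at once of CTSG, ELANE and PRTN3. The other group was 3 U937 lines that carried control plasmids. Cells of both groups had been selected with geneticin, treated with DNase, washed with PBS and cryopreserved in a medium with DMSO before the assay. Each clone is a single clone of 1 cell line, so the spread between clones is spread between clones of that line, and nothing in the labels names separate cultures behind the control lines. Each library came as its own list of peaks on GRCh38. A peak within 1000 bp of either end of a gene is called a gene-end peak here.

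Ubiquitin is attached to proteins by a cascade of an activating enzyme (E1), a conjugating enzyme (E2) and a ligase (E3), and the UBE2 genes encode the E2 step. Most E2 enzymes carry ubiquitin, while a few carry relatives such as SUMO, NEDD8 or ISG15. The USP enzymes form the largest family of deubiquitinases and cleave ubiquitin off again, which recycles it, edits its chains or spares a protein from the proteasome. In blood cells these enzymes are known for roles in protein turnover, DNA repair, the cell cycle and inflammatory signalling.

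Of the 86 members, 68 matched an entry in the RefSeq promoter sequences (GRCh38.p14), which give each gene's strand and start. Peaks of all 3 clones covered part of the promoter of 5 of these 68 members (7.35%, against 4.12% of 15812 genes with an entry). The 250 bases before the start of these 5 are printed first, because they are the sites that every clone listed. Capitals mark bases inside a peak of each of the 3 clones. They lie at chr12:6851900-6852149 (plus strand) for USP5, chr19:55407789-55408038 (minus strand) for UBE2S, chr3:49340054-49340303 (minus strand) for USP4, chr19:58558612-58558861 (minus strand) for UBE2M and chr9:129835208-129835457 (plus strand) for USP20.
USP5: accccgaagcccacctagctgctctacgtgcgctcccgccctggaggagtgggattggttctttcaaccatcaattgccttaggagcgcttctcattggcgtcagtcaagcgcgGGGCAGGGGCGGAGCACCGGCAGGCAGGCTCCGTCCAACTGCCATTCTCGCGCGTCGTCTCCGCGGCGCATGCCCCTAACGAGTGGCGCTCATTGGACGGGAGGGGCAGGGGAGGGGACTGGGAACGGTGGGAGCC
UBE2S: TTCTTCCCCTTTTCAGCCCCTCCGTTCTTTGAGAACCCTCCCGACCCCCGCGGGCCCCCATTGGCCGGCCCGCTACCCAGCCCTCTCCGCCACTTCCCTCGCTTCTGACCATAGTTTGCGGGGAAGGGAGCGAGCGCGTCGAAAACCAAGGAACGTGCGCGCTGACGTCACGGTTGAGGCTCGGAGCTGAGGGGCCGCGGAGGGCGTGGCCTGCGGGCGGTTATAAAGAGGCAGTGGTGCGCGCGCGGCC
USP4: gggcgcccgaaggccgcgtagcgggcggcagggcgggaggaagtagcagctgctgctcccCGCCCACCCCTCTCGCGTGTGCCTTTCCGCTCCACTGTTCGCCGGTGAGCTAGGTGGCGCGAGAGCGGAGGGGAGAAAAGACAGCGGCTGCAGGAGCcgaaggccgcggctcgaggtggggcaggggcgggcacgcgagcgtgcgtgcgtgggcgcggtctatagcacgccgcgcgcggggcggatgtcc
UBE2M: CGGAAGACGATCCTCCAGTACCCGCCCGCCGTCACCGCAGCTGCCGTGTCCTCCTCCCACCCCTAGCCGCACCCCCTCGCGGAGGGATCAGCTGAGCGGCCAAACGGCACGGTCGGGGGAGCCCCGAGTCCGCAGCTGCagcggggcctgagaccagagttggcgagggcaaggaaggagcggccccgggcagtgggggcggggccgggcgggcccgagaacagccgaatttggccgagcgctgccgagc
USP20: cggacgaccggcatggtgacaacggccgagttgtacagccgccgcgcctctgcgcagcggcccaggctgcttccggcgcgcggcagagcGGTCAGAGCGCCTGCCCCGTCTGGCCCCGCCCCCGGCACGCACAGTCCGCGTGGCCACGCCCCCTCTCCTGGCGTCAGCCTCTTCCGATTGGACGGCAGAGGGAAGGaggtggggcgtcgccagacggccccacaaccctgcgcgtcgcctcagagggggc
The shared stretch was 136 bases in USP5, the whole 250 bases in UBE2S, 97 in USP4, 139 in UBE2M and 107 in USP20. The next sequences were chosen after their values were seen: USP8 (chr15:50424155-50424404, plus strand), whose promoter held the member peak with the highest −log10 q of clone 2, and UBE2D2 (chr5:139561089-139561338, plus strand), whose start in the table lies inside the gene. Capitals mark bases in peaks of clones 1 and 2, and clone 3 listed none there.
USP8: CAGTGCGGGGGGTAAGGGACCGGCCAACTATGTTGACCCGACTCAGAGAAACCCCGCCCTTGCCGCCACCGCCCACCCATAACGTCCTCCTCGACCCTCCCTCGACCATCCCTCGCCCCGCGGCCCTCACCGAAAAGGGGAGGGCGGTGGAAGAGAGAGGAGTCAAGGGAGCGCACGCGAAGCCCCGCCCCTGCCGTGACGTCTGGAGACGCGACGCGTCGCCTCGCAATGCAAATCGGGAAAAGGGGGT
UBE2D2: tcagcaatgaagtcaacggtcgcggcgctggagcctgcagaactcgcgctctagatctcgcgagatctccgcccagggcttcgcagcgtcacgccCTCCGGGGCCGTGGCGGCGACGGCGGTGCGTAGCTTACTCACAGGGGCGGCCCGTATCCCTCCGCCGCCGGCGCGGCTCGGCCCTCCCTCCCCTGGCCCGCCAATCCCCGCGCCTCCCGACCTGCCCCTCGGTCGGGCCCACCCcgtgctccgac
For contrast, USP29 (chr19:57118837-57119086, plus strand) and UBE2J1 (chr6:89352723-89352972, minus strand) are the first USP and UBE2 genes by symbol with an entry and with no peak at an end or inside the gene in any library.
USP29: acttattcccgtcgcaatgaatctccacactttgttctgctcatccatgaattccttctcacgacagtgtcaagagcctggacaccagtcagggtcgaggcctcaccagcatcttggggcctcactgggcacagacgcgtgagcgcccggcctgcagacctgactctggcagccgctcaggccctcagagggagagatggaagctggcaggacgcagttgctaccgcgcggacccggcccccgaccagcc
UBE2J1: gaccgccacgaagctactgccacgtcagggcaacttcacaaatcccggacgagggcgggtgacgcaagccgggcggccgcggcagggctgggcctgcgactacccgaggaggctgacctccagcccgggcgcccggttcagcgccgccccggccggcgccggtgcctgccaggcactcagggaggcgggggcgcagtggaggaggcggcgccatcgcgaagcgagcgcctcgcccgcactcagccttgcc
UBE2J1, with no peak, has the highest share of G and C of the printed stretches, 75.2%, and USP29 the lowest, 62%, against 66 to 74.4% in the others.

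The USP and UBE2 genes had gene-end peaks in the clones and none in the control lines. In clones 1, 2 and 3, 55, 37 and 7 of the 86 members had one (64, 43 and 8.14%), against 0, 0 and 0 members in control lines 1, 2 and 3. The background over all protein-coding genes was 39.1, 29.6 and 6.55% in clones 1, 2 and 3 and 0.00501, 0 and 0% in the control lines. The members' share lay above the background in each clone, least so in clone 3, where UBE2 genes alone (5.56%) lay under it. USP genes had 32, 21 and 5 of 50 and UBE2 genes 23, 16 and 2 of 36. The members are genes and not replicates, and they were chosen with results of these data known, so no test was made of these shares.

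**Figure D1:**
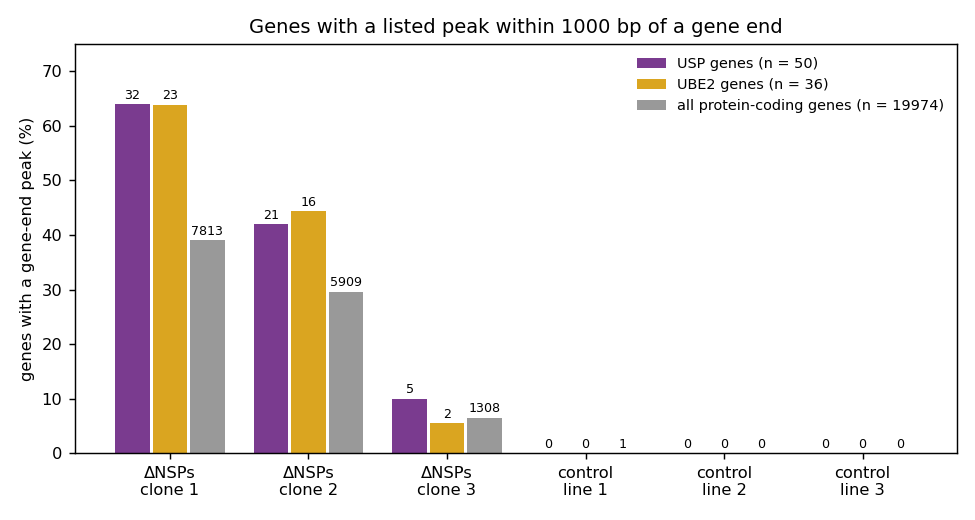
Share of genes (%) with a gene-end peak in each of the 6 libraries, for 50 USP genes, 36 UBE2 genes and all 19974 protein-coding genes, with the number of genes above each bar. The bars reach 64% for USP genes and 63.9% for UBE2 genes in clone 1 and stand at 0 for both in the 3 control lines.

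In 32 of 86 members (37.2%) 2 or more clones had a gene-end peak and no control line did, against a background of 23.3% of all protein-coding genes. These were 17 USP genes (34%) and 15 UBE2 genes (41.7%). All 3 clones had one at 6 members (6.98%, background 5.4%), which are USP4, USP5, USP20, USP21, UBE2M and UBE2S. At least 1 clone had one at 61 members (70.9%, background 46.6%), and 25 members had none in any library (background 53.4%). By exact pattern, 25 members had peaks in clones 1 and 2 alone (background 16.9%), 24 in clone 1 alone (16.1%) and 5 in clone 2 alone (7.1%). A single member, USP16, had them in clones 2 and 3 alone (0.225%), and no member in clones 1 and 3 alone (0.806%) or in clone 3 alone (0.115%). The call in 2 clones rested on clones 1 and 2: 7 members were left without clone 1 (8.14%, background 5.63%) and 6 without clone 2 (6.98%, background 6.21%), as both other clones then had to list the gene, and 31 were left without clone 3. UBE2 genes then had 2 of 36 without clone 1 or without clone 2 (5.56%), which was under both of these backgrounds.

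The number of listed peaks moved with the groups over the whole genome. The clones' lists had 14262, 24981 and 2188 peaks on chromosomes 1-22, X and Y, against 13, 4 and 2 in control lines 1, 2 and 3. Over all protein-coding genes, 5010 ± 3344 had a gene-end peak in the clones and 0.333 ± 0.577 in the control lines (SD, n = 3 each). The exact two-sided permutation test on log10(genes + 1) gave p = 0.1, the smallest value that 3 libraries against 3 allow. No member can therefore pass a threshold of 0.05 by itself, and a closed site and a library that yielded few peaks cannot be told apart in the control lines. The nearest control peak to any member lay 48947 bp from USP14 in control line 1 and 51272 bp from it in control line 3. Read totals are unknown. The pile-up implied by the authors' fold and p at member peaks was 13 to 86 reads in clone 1, 13 to 79 in clone 2 and 26 to 67 in clone 3 (medians 26, 29 and 32), over a median implied background of 6.0, 8.09 and 9.0 reads. Of 12 monocytic marker genes, 3, 6 and 1 had a gene-end peak in clones 1, 2 and 3 (background 39.1, 29.6 and 6.55%), CD68 in all 3. SPI1, MPO, LYZ, FCGR1A and CD86 had none in any. In 2 or more clones 2 of the 12 had one, CD68 and ITGAM (16.7%, background 23.3%). By the same count, B cell, T cell, erythroid and epithelial or liver genes had one at 0, 1, 1 and 0 of 5. The T cell gene was CD3E, and the erythroid gene was KLF1, which had one in all 3 clones.

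USP5, which takes apart free ubiquitin chains, was the member with the smallest sum of ranks by −log10 q in the clones' lists. The gene lies on the plus strand of chromosome 12, at 6852150 to 6866632. The fold enrichment, the authors' ratio of pile-up to local background at a summit, was 4.49, 6.14 and 3.17 at its highest peaks in clones 1, 2 and 3, with −log10 q of 22.0, 31.8 and 10.3. These peaks stood in the top 0.526, 0.344 and 2.01% of each list. The locus held several summits: clone 1 had one 82 bp upstream of the gene start (fold 2.26) and one 307 bp downstream of it (4.49). Clone 2 had summits 750 bp upstream (6.14), 85 bp upstream (3.74) and 288 bp downstream (4.46), and clone 3 had 1 interval, 6851945 to 6852538, over both of the inner positions. The summit 750 bp upstream was listed in clone 2 alone. It, the peaks just upstream of the start and the clone 3 interval also touched the window of CDCA3. Clone 2 had a further peak 838 bp past the 3′ end of the gene, in the window of TPI1.

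USP4, a deubiquitinase known from the spliceosome and TGF-beta signalling, had a pair of peaks in every clone. The gene lies on the minus strand of chromosome 3, at 49277144 to 49340053. The inner summit was 138, 162 and 160 bp upstream of the start in clones 1, 2 and 3, with folds of 3.50, 3.84 and 3.79. The outer summit was 746, 714 and 666 bp upstream, with folds of 3.48, 4.93 and 2.76. The outer one had the higher −log10 q in clones 1 and 2 (6.29 and 11.6, against 4.69 and 4.68 for the inner one), and the inner one in clone 3 (5.60, against 2.68). No other protein-coding gene had a window there.

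USP20, known to act on HIF-1 alpha and on receptors that return from endosomes, had a peak at its start in all 3 clones. Each of these peaks also touched the window of C9orf78. USP20 lies on the plus strand of chromosome 9, at 129835458 to 129881828. The folds were 3.96, 2.85 and 3.37 in clones 1, 2 and 3 with −log10 q of 6.98, 2.04 and 3.78, and the summits lay 51, 71 and 100 bp upstream of the start. The clone 2 peak ranked near the bottom of its list, at 99.2% of its length.

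The call of USP21, a histone H2A deubiquitinase, rested on its other end. Peaks near its 3′ end reached folds of 3.30, 4.20 and 2.70 in clones 1, 2 and 3 and −log10 q of 12.8, 17.8 and 3.16. Their summits lay 605, 587 and 459 bp past the gene's end at 161165723 on chromosome 1, and all of them also touched the window of PPOX. At the start of USP21, clone 1 alone had a peak (fold 4.75, 9 bp upstream), which touched the window of UFC1, the E2 of the ubiquitin relative UFM1.

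UBE2S, which lengthens lysine-11 chains for the anaphase-promoting complex, had promoter peaks in all 3 clones. It lies on the minus strand of chromosome 19, at 55399745 to 55407788. The highest peaks had folds of 4.11, 3.85 and 2.73 in clones 1, 2 and 3, −log10 q of 14.3, 17.1 and 4.28, and summits 207, 473 and 218 bp upstream. Clone 2 also had a summit 280 bp upstream (fold 2.65), in an interval that overlaps those of the other clones.

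UBE2M, the E2 that passes NEDD8 to cullins, also had promoter peaks in all 3 clones. It lies on the minus strand of chromosome 19, at 58555712 to 58558611. Its folds were 6.73, 3.67 and 3.90 in clones 1, 2 and 3, with −log10 q of 22.3, 3.70 and 6.55 and summits 269, 223 and 318 bp upstream. The peak was in the top 0.505% of the list of clone 1 but at 63.4% of the list of clone 2, so the clones differed in its place. At the 3′ end, clones 1 and 2 had peaks with folds of 3.28 and 3.64 that touched the window of CHMP2A.

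**Figure D2:**
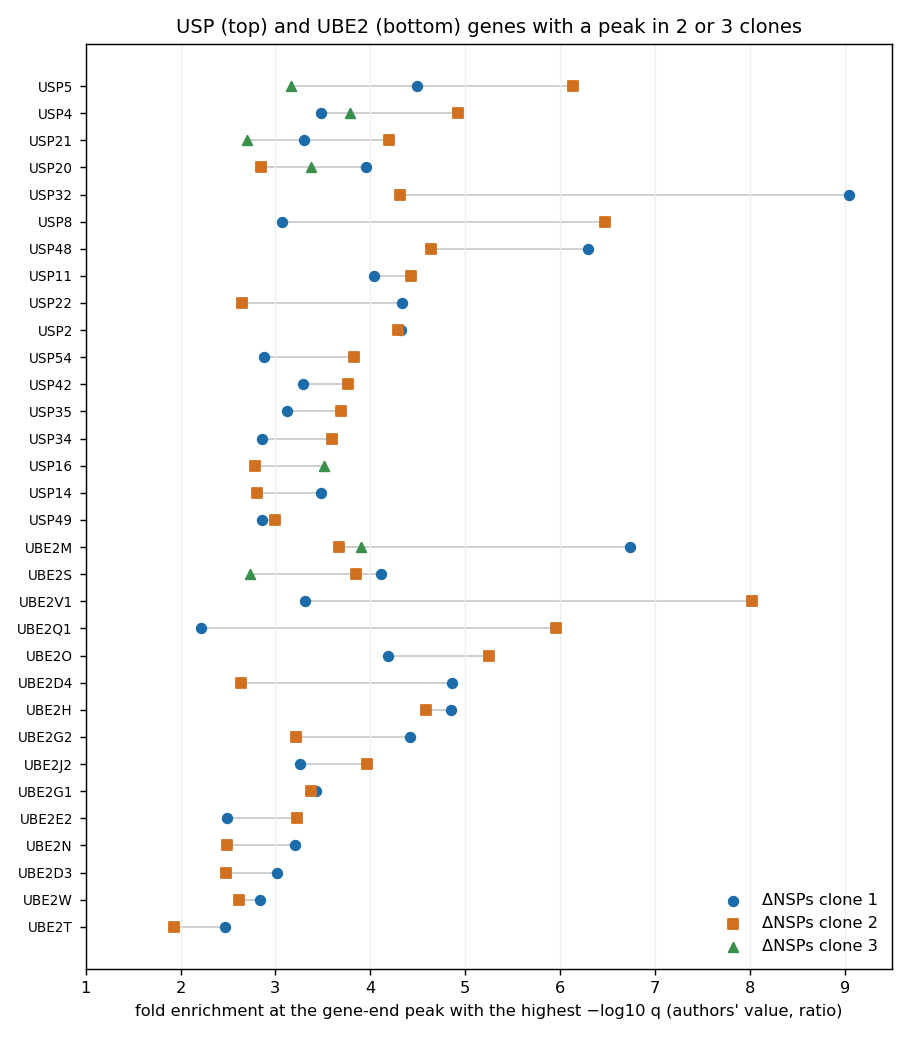
Fold enrichment (authors' ratio, x axis) at the gene-end peak with the highest −log10 q in clones 1, 2 and 3 for the 17 USP and 15 UBE2 genes with a peak in 2 or more clones; a grey line joins the clones of a gene, and a missing point means no listed peak. The values run from 1.93 (UBE2T, clone 2) to 9.04 (USP32, clone 1), and clone 3 has a point at 7 of the genes.

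Among USP genes that act on chromatin and histones, 4 of 10 (40%, background 23.3%) had a gene-end peak in 2 or more clones, namely USP16, USP21, USP22 and USP49. USP16, another H2A deubiquitinase, was the only member with peaks in clones 2 and 3 but not in clone 1. Its folds were 2.79 and 3.51 and its −log10 q 5.59 and 5.07 in clones 2 and 3, with summits 258 and 93 bp downstream of its start on chromosome 21 (29024668, plus strand), and the nearest peak of clone 1 lay 19112 bp from a gene end. USP22, the deubiquitinase of the SAGA coactivator, had peaks of 4.33- and 2.65-fold in clones 1 and 2, in the top 1.35% of the list of clone 1 and at 62.3% of that of clone 2. USP49 had folds of 2.86 and 3.00 in clones 1 and 2. USP3 and USP36 had a peak in clone 1 alone and USP27X in clone 2 alone, while USP7, which acts on MDM2 and p53, USP44 and USP51 had none.

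Among USP genes of the DNA damage response, 3 of 10 (30%, background 23.3%), USP4, USP11 and USP48, had a gene-end peak in 2 or more clones, and 8 had one in clone 1 (background 39.1%). USP48 (chromosome 1, 21678298 to 21783149) had folds of 6.30 and 4.64 in clones 1 and 2 at its highest peaks, with −log10 q of 13.6 and 15.8. A further clone 2 peak had a fold of 5.22, and USP48 was the only member with a fold of 5 or more in 2 clones. USP11 had folds of 4.04 and 4.43 and −log10 q of 4.73 and 7.54 in clones 1 and 2, with summits 668 and 540 bp inside the gene. USP1, which works with WDR48 on FANCD2 and PCNA, had a peak in clone 1 alone (fold 3.83, −log10 q 9.0, 37 bp upstream). USP10, USP24, USP28 and USP47 likewise had one in clone 1 alone, and USP29 and USP45 had none at an end.

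The list of free chains and the proteasome holds only 3 genes, of which 2 had a peak in 2 or more clones (66.7%, background 23.3%). All 3 had a peak in clone 1, where 64% of all members had one (background 39.1%). Beside USP5, USP14, which sits on the proteasome, had folds of 3.48 and 2.80 in clones 1 and 2, with summits 213 and 191 bp upstream. USP13 had a peak in clone 1 alone (fold 3.22, −log10 q 2.21).

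Among USP genes of endosomes, membranes and mitochondria, 5 of 10 (50%, background 23.3%) had a gene-end peak in 2 or more clones. USP8, which acts on receptors and ESCRT proteins at endosomes, had folds of 3.07 and 6.48 and −log10 q of 9.02 and 32.6 in clones 1 and 2, at summits 99 and 136 bp upstream. The implied pile-up was 55 and 77 reads over a background of 17.3 and 11.0 reads, and clone 3 had no peak within 1457118 bp of a gene end. USP32, a membrane-anchored member, had the highest fold of all members in clone 1, 9.04, and 4.31 in clone 2, with −log10 q of 16.6 and 5.91. Its summits lay 709 and 950 bp inside the gene, and both peaks touched the window of CHCT1. USP2 had nearly the same fold in clones 1 and 2, 4.32 and 4.29, with −log10 q of 12.2 and 10.2, at summits 46 and 41 bp upstream. USP35 had peaks of 3.12- and 3.69-fold enrichment in clones 1 and 2, both in the window of KCTD21 as well. USP6NL, USP19 and USP33 had a peak in clone 1 alone, that of USP19 with a fold of 5.82 in the window of LAMB2 as well, and USP6 and USP30, which sits on the mitochondrial outer membrane, had none.

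Among USP genes of signalling and immunity, 1 of 8 had a gene-end peak in 2 or more clones (12.5%, under the background of 23.3%). This was USP34, known from Wnt signalling, with folds of 2.86 and 3.59 and −log10 q of 6.65 and 12.8 in clones 1 and 2. USP9X, an X-linked enzyme known to stabilise MCL1, had a peak in clone 1 alone, 1638 bp wide with 5 summits, a fold of 7.52 and a −log10 q of 11.0. USP12, USP15 and USP38 had one in clone 1 alone, USP25 and USP31 in clone 2 alone, and USP46 had none. The peak of USP31 in clone 2 had a fold of 4.22 and a −log10 q of 14.3, with no clone 1 peak within 139416 bp of a gene end. Of the 3 genes of the cell cycle, cilia and RNA, USP42 had folds of 3.29 and 3.76 and −log10 q of 9.01 and 11.5 in clones 1 and 2, USP37 a peak in clone 2 and the splicing factor USP39 a peak in clone 1. USP54, placed in no role here, had folds of 2.88 and 3.83 in clones 1 and 2.

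Among the UBE2 genes whose enzymes start chains on many substrates, 4 of 9 (44.4%, background 23.3%) had a gene-end peak in 2 or more clones. UBE2D3 had folds of 3.02 and 2.48 in clones 1 and 2, both in the window of CISD2 as well. UBE2D4 had 4.86 and 2.64, in the window of URGCP as well, UBE2E2 2.48 and 3.23, and UBE2W 2.84 and 2.62. UBE2D1 and UBE2E3 had a peak in clone 1 alone, and UBE2D2, UBE2E1 and UBE2L3, the E2 of the Parkin and HOIP type of ligase, had none at an end. The pair that makes lysine-63 chains had peaks in clones 1 and 2. UBE2N had folds of 3.21 and 2.49, and its inactive partner UBE2V1 had 3.31 and 8.02. The clone 2 value was the highest fold of any member in that clone. The −log10 q of UBE2V1 was 5.01 and 23.5 in clones 1 and 2, at summits 67 and 54 bp upstream of the outer start. UBE2V2, the other partner, had none at an end.

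UBE2C, which starts chains for the anaphase-promoting complex, had a peak in clone 2 alone (fold 3.50, −log10 q 3.20), unlike UBE2S. Of the genes of cullin ligases and lysine-48 chains, UBE2G1 had folds of 3.43 and 3.37 in clones 1 and 2, UBE2K a peak in clone 1 and UBE2R2 none at an end. At the endoplasmic reticulum, UBE2G2 had 4.42 and 3.22 and UBE2J2 3.26 and 3.97, and UBE2J1 had none. Of the genes of DNA repair and histone ubiquitination, UBE2T, the E2 of the Fanconi anaemia pathway, had folds of 2.47 and 1.93 in clones 1 and 2. These low folds came with high implied pile-ups, 86 and 58 reads, over backgrounds of 34.2 and 29.6 reads. UBE2A had a peak in clone 1, and its close relative UBE2B none.

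Among E2 enzymes of ubiquitin relatives, UBE2M was the 1 of 4 with a peak in 2 or more clones (25%, near the background of 23.3%). UBE2F, the other NEDD8 enzyme, had a peak in clone 1 (fold 5.82), as did UBE2L6, the ISG15 enzyme (4.63). Among the other UBE2 genes, UBE2O, a large enzyme with E2 and E3 activity, had 4.19- and 5.24-fold peaks in clones 1 and 2, with −log10 q of 6.28 and 9.42. Their summits lay 96 and 106 bp upstream, and both peaks touched the window of AANAT. UBE2Q1 had folds of 2.21 and 5.96 in clones 1 and 2 at nearly the same interval (chromosome 1, 154558770 to 154559045 and 154558789 to 154559040). Its −log10 q was 2.95 and 30.9. That peak stood at 77.7% of the list of clone 1 and in the top 0.400% of that of clone 2. UBE2H, known with the CTLH ligase, had folds of 4.85 and 4.59 and −log10 q of 6.52 and 8.21 in clones 1 and 2. These peaks lay at opposite ends of the gene, with summits 143 bp inside the higher end in clone 1 and 1068 bp outside the lower end in clone 2. UBE2Q2 had a fold of 8.35 and a −log10 q of 14.9 in clone 1 alone, UBE2Z had a peak in clone 1, and UBE2QL1 and UBE2U had none at an end.

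Other members without a gene-end peak in any library were USP26, known from testis, USP40, USP43, USP50, USP53, UBE2L5 and UBE2V1P16. Over all 25 members without one, the nearest peak lay a median of 59.1, 42.4 and 1306 kb from a gene end in clones 1, 2 and 3. Clone 3 had the shortest list of the clones, and the part of list length in its distance was not tested.

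**Figure D3:**
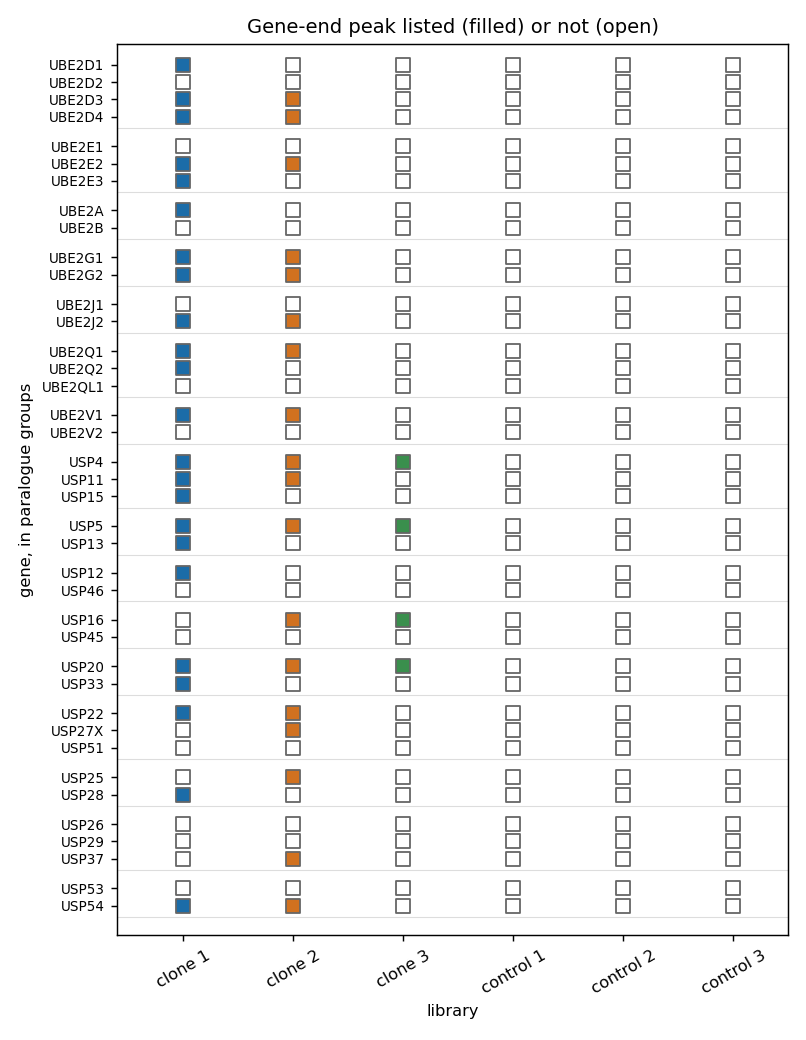
Gene-end peaks of USP and UBE2 genes in 16 groups of paralogues, with a filled square where the library of that column lists a peak. Every group with a peak in clone 3 has it in 1 gene only, and the 3 control columns are open throughout.

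The peaks of close relatives are given side by side, with no test of how often they differ. Clone 3, which listed 8.14% of all members, listed USP4, but not USP11 or USP15, USP5 but not USP13, USP20 but not USP33, and USP16 but not USP45. Clone 1 listed all of USP4, USP11 and USP15, both USP5 and USP13 and both USP20 and USP33, but neither USP16 nor USP45. Clone 2, with the longest list, had USP4 and USP11 but not USP15, and USP5 but not USP13. It also had USP20 but not USP33, and USP16 but not USP45. Among 4 UBE2D genes, clone 1 listed 3 and clone 2 listed 2. Only the UBE2G pair had a peak in both genes in both clones 1 and 2.

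Where the RefSeq promoter entry gave the strand, the peaks sat at the 5′ ends. In clones 1, 2 and 3, 48, 28 and 6 of the 68 members with an entry had a 5′ peak (70.6, 41.2 and 8.82%), against a background of 39.7, 29.6 and 6.5% of 15812 genes. Of the members with an entry and a gene-end peak, 100, 96.6 and 85.7% had one at the 5′ end in clones 1, 2 and 3, against 96, 92.5 and 91.9% over all genes. The exception in clones 2 and 3 was USP21. The median summit lay at −78, −108.5 and −160 bp from the outer 5′ end (negative is upstream) in clones 1, 2 and 3, compared with −46, −69 and −94 bp over all genes. In 2 or more clones, 26 of 68 members had a 5′ peak, against a background of 23.7%.

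**Figure D4:**
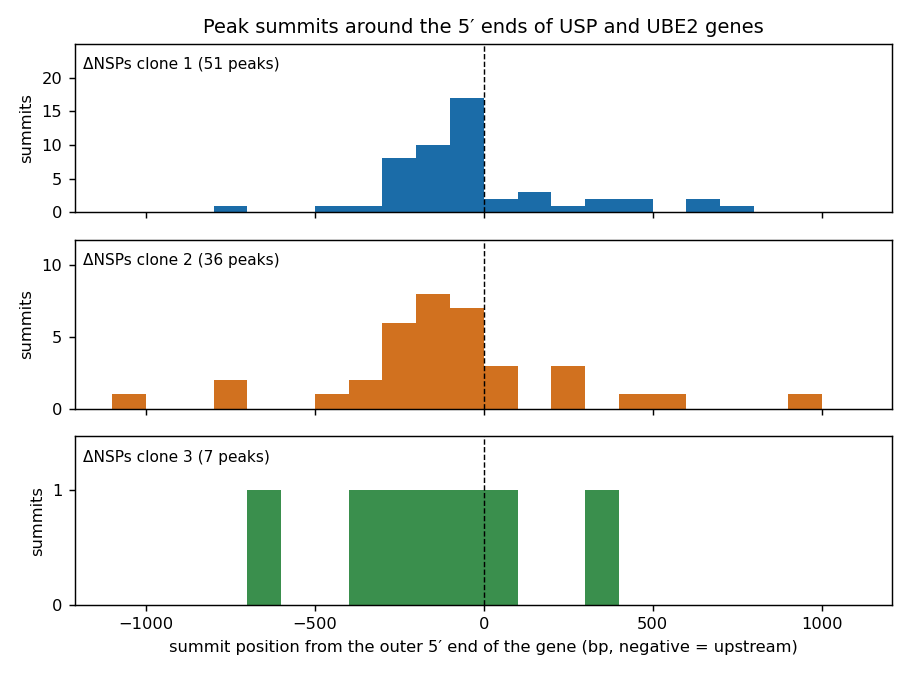
Number of peak summits per 100 bp around the outer 5′ end of USP and UBE2 genes with a promoter entry, for clones 1, 2 and 3 from top to bottom. The 51, 36 and 7 summits gather just upstream of the start, with medians at −78, −108.5 and −160 bp.

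Peaks of different clones mostly overlapped at a member. Clones 1 and 2 both listed 31 members, and their peaks overlapped by 1 bp or more at 28 (90.3%), against 91% over all genes listed in both. The exceptions were UBE2E2, UBE2J2 and UBE2H. At UBE2E2 the clone 1 peak, 23203104 to 23203264, fell between the 2 peaks of clone 2. At UBE2J2 the clone 1 and clone 2 peaks lay 108 bp inside and 58 bp outside the start by their summits. Their edges nearly met, as the clone 1 peak ended at 1273850 and the clone 2 peak began at 1273855. Clone 3 overlapped clone 1 at 6 of 6 shared members and clone 2 at 7 of 7, against 98.1 and 89.7% over all genes shared by these pairs of clones. Peaks touched the window of another protein-coding gene in 13 of 63, 12 of 50 and 3 of 8 pairs of a member and a peak in clones 1, 2 and 3. The matching shares over all genes were not counted. Without peaks that touched another gene's window, 25 members (29.1%) were still listed in 2 or more clones, against a background of 14.4%. Member peaks were narrow in clone 2 (median 119.5 bp), while clones 1 and 3 had 329 and 211.5 bp, as were all gene-end peaks (121, 307 and 185.5 bp in clones 2, 1 and 3).

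The outer gene end was not always the start in the promoter entries, which lay inside the gene at 11 of 68 members. Over all genes with an entry, the start differed from the outer end at 2555 of 15812. UBE2D2 had no peak at its outer ends, but at its table start, 35099 bp inside, clones 1 and 2 had peaks with folds of 2.77 and 4.61 and −log10 q of 4.75 and 8.86. UBE2R2 and USP45 had a peak at the table start in clone 1 alone, with folds of 3.01 and 2.77. USP32 had peaks at both starts: at the inner one, 30283 bp inside, the folds were 3.64 and 3.97 in clones 1 and 2. USP2, USP54 and UBE2V1 had peaks at the outer start and none at the inner one, and USP7 had none at either. With a window at the table start added, 33 members were listed in 2 or more clones, against a background of 24.2%.

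The window of 1000 bp decided few members. In clone 2, UBE2H lay just inside, with a peak edge 990 bp from the gene end, as did USP32 (922 bp), and USP3 and UBE2F lay just outside, at 1160 and 1648 bp. In clone 1 the outermost members were USP32 (515 bp) and USP11 (476 bp), and the nearest outside were UBE2R2 (1339 bp) and USP45 (2333 bp). In clone 3, USP21 (429 bp) was the outermost and USP19 (3323 bp) the nearest outside.

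The members' promoters were rich in G and C. Over 300 bases, 250 before and 50 after the start in the RefSeq entry, the median was 70.7% G and C and 35 CG pairs in 68 members, against 62.7% and 22 in 15812 genes. Promoter peaks in 2 or more clones were listed at 19 members (27.9%, against 19% of 15812 genes). These had a median of 72% and 36 CG pairs, and the 22 members with none in any clone 67.8% and 25.5. Over all genes the same medians were 65.5% and 28 with a promoter peak in 2 or more clones, and 59% and 13 with none. Some of the 22 members did have a gene-end peak outside the 300 bases. These were USP2, USP11, USP13, USP22, USP38, USP54, USP6NL and UBE2V1. At USP2, USP22, USP54 and UBE2V1 the start in the entry lies inside the gene.

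Short motifs were searched on both strands of these 300 bases. The GC box of SP and KLF factors, GGGCGG, was found in 55 of 68 members (80.9%), against 58.5% of all promoters, and in 18 of the 19 members with a promoter peak in 2 or more clones (94.7%), against 77.2% of all genes with such a peak. ATGGCGG, the core of YY1, was in 13 members (19.1%, against 7.63%), and CCGGAAG, the core of ETS factors, in 15 (22.1%, against 14.2%). CCAAT, the box of NF-Y, was in 20 (29.4%, against 36.3%), and TATAAA in 3 (4.41%, against 9.64%). TGACGTC, part of the cAMP response element, was in 4 (5.88%, against 4.59%), GCATGCG of NRF1 in 4 (5.88%, against 5.14%) and the E-box CACGTG in 4 (5.88%, against 8.87%). Among the 22 members with no promoter peak, GGGCGG was in 13 (59.1%), against 46.2% of all genes with none. CCAAT was in 6 of the 19 members with a promoter peak in 2 or more clones (31.6%), against 50.6% of all genes with such a peak. The part of G and C content in these shares was not tested. Matches of different motifs did not overlap in the printed sequences.

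In the printed sequences, counted from 1 at the 5′ base, USP5 holds within its capitals GGGCGG at 121 to 126, GCATGCG on the other strand at 181 to 187 and CCAAT on the other strand at 206 to 210. UBE2S, all in capitals, holds CCAAT on the other strand at 60 to 64. It also holds TGACGTC at 163 to 169, overlapped by a match on the other strand at 164 to 170. GGGCGG follows at 215 to 220 and TATAAA at 222 to 227. USP20 holds GGGCGG and CCAAT in capitals on the other strand, at 116 to 121 and 177 to 181. USP4 has 5 matches of GGGCGG, none of them wholly in capitals, and UBE2M 3, of which 1 is. USP8 holds 4 matches of GGGCGG and TGACGTC at 197 to 203, all in capitals. UBE2J1, with no peak, also holds GGGCGG, 3 times, and USP29 holds none of these motifs. A match is a description of the letters and not evidence of a bound factor.

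Other genes of the ubiquitin system were counted in lists of the same kind, again against a background of 23.3% with a gene-end peak in 2 or more clones and no control line. Of 36 deubiquitinase genes of other families or names, 14 had one (38.9%), among them JOSD2, VCPIP1 and PAN2 in all 3 clones, with folds of 3.37, 3.32 and 2.61 for JOSD2 in clones 1, 2 and 3. Of 8 E2-fold genes with other names, 5 had one, with ATG3 and AKTIP in all 3 clones. ATG3, the E2-like enzyme of autophagy, had folds of 5.56, 2.12 and 2.63. Of 9 partners of USP enzymes 5 had one, and G3BP1, the partner of USP10, had it in all 3 clones (3.55, 3.25 and 2.14). WDR48 was not among these 5. Of 10 E1 genes 2 had one (ATG7 and UBA7), and of 31 HECT and U-box ligase genes 6 (19.4%), with HERC1 at 5.96, 5.85 and 4.06 in clones 1, 2 and 3. Of 12 genes of ubiquitin and its relatives 5 had one, namely FAU, ISG15, NEDD8, SUMO3 and URM1. SUMO proteases had 2 of 7 and the cullin-RING core 4 of 14. No gene of these lists had a gene-end peak in a control line.

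**Figure D5:**
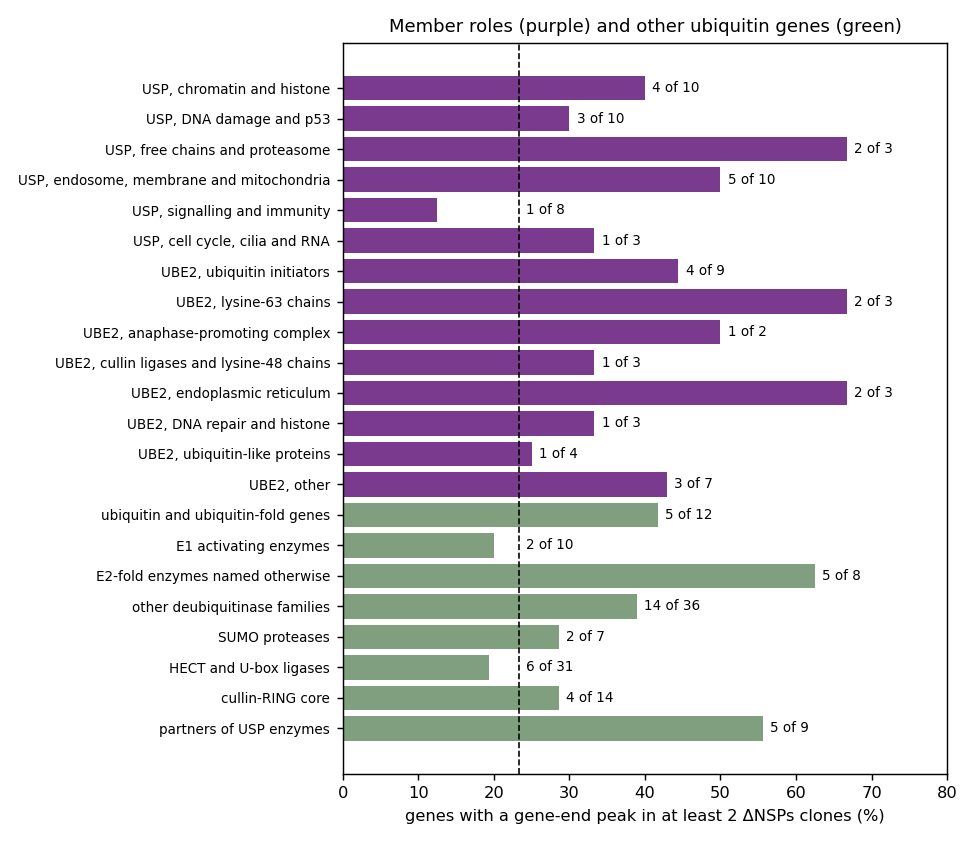
Share of genes (%) with a gene-end peak in 2 or more ΔNSPs clones, by role of the USP and UBE2 genes (purple) and in 8 lists of other ubiquitin genes (green), with counts beside the bars. The dashed line is the background of 23.3% over all protein-coding genes; 12.5% of USP signalling genes, 20% of E1 genes and 19.4% of HECT and U-box genes lie below it.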

How the data were processed

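ATAC-seq libraries of 3 ΔNSPs clones and 3 control lines of U937 cells, grouped by their titles, were analysed from the peak lists. Per the submitters' processing notes, the tools were FastQC, Bowtie2, Picard and MACS2 on GRCh38. Versions, settings, transposase shift and duplicate handling were not given in the sources used here. Peaks were called per library, as the peak names carry the library's name. The deposited values per summit are a fold enrichment (a ratio to local background) and the −log10 of its p and of its q; the deposited score was not used. Intervals listed more than once were counted once, with the summit of highest −log10 q; negative summit offsets were set to 0.

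Gene ends came from RefSeq genes of GRCh38.p14 and strands from RefSeq promoter entries (68 of 86 members, 15812 of 19974 genes). A gene was called in a library when a peak overlapped the 1000 bp window of either end by at least 1 bp. Pile-up and background were solved from fold, as (pile-up + 1)/(background + 1), and p, as a Poisson tail; all 121 pile-ups of members came out whole within 0.05 read. Read totals are unknown, so no interval or floor was given. The matching was tested on simulated data. The counts over all genes were compared by an exact permutation test over 20 assignments and, as an alternative, an exact sign-flip test over 8 sign flips. Both p-values stood at the smallest value that these tests allow, so they do not measure the spread between the libraries. That spread may be technical. Members, lists, roles and alternatives were chosen with earlier results of these data known. Described in most detail were members with a peak in all 3 clones, the 3 highest folds per clone, and the 12 members in exactly 2 clones with the smallest sum of ranks; others named were chosen by role or after their values were seen. Python 3.11.15, numpy 2.4.6, scipy 1.17.1 and pandas 2.3.3 were used. Values of some single genes are not reported here.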

Additional observations from a re-analysis of the deposited data

How the results depend on the processing

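Counts of members with peaks in 2 or more clones and no control line stayed within 1.5 times under windows of 500 and 2500 bp (30 and 35 of 86), with the summit or most of the peak in the window (31 each), at the 5′ end only (26 of 68), with overlapping peaks (29) and in the alternatives added after seeing the data, table starts (33) and no peak of another gene's window (25). That last one left 2875 of all genes, a larger loss than for members. At −log10 q of 5 and above there were 15 members (10 USP, 5 UBE2) and 2189 genes, and with a fold of 5 or more 1 member (1 USP, 0 UBE2) and 132 genes. With clone lists of equal length, 2188 peaks, they were 6 members (4 USP, 2 UBE2: USP5, USP8, USP21, USP48, UBE2M and UBE2S) and 976 genes. With all 3 clones they were 6 members (4 USP, 2 UBE2) and 1079 genes, and with at least 1 clone 61 members (37 USP, 24 UBE2) and 9298 genes. Leaving out each library gave 6 to 32 members (USP 4 to 17, UBE2 2 to 15) and 1124 to 4652 genes; the low values came without clone 1 or clone 2, where both remaining clones must list a gene. The share of all 86 members was above that of all genes in each of these alternatives. The margin was small without clone 2 (6.98 against 6.21%) and, with 1 member, at a fold of 5 or more (1.16 against 0.661%). UBE2 genes alone lay under all genes at a fold of 5 or more (0%). They also did so without clone 1 or clone 2 (5.56%, against 5.63 and 6.21%). The cause was not tested. Of 20 members described in detail, 3 kept their number of clones with a peak at a fold of 5 or more, 7 with lists of equal length, 14 at −log10 q of 5 and above, 15 without peaks of another gene's window and 18 to 20 with other windows or overlaps; at the 5′ end 14 of 15 did.

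The log10 difference in genes with a gene-end peak was 2.52 to 3.55 over the log-scale alternatives, with an exact permutation p of 0.1, and 3.34 to 3.73 with a library left out. With the replicate block (libraries paired by number) the difference was 3.49 and the exact sign-flip p was 0.25, the smallest that 3 pairs allow. Whether the numbers pair the libraries could not be assessed, because 1 gene alone had a control gene-end peak, and the labels give them no shared batch. Read depth is unknown and the control lists are nearly empty, so a lack of control peaks does not show closed chromatin.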

Other observations

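Inside the genes, away from the windows at the ends, 14, 26 and 2 of the 86 members had a peak in clones 1, 2 and 3 (16.3, 30.2 and 2.33%, against 14.8, 25.1 and 2.64% of all protein-coding genes), and none had one in a control line. The members were longer than other genes, with a median of 63.7 kb against 24.2 kb over all protein-coding genes. The part of gene length in these shares was not tested. Internal peaks were listed in 2 or more clones at 11 members (12.8%, near the 11% of all protein-coding genes). They overlapped at 8 of these members (72.7%, against 72.4% over all genes): USP20, USP32, USP39, USP42, UBE2D2, UBE2D3, UBE2F and UBE2G1. USP20 was the only member with an internal site that overlapped in all 3 clones, on chromosome 9 at 129838782 to 129838949 in clone 1, with folds of 2.91, 5.76 and 3.02 in clones 1, 2 and 3. A second site of USP20, at 129863175 to 129863440 in clone 1, had folds of 2.54 and 6.36 in clones 1 and 2. At both sites clone 2 had the highest fold, while at the promoter of USP20 it had the lowest (2.85, against 3.96 and 3.37 in clones 1 and 3). Over all peaks of clone 2 the median fold was also higher than over its gene-end peaks (4.16 against 3.74). In clone 3 these medians were 3.35 and 2.98, and in clone 1 both were 3.54. Read totals are unknown, which limits a comparison of folds between clones. USP42 had an internal site on chromosome 7, at 6104569 to 6104802 in clone 1, with folds of 2.94 and 3.45 and −log10 q of 11.1 and 13.0 in clones 1 and 2. UBE2D3 had one on chromosome 4, at 102827942 to 102828417 in clone 1, with folds of 3.12 and 4.29 and −log10 q of 12.2 and 9.37 in clones 1 and 2, above those of its promoter peaks (3.00 and 2.13). One of the shared sites of USP39 lay in the window of C2orf68.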
